A study of Rattus norvegicus with 3 samples.

Results

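Nfkb1, Nfkb2 and Nfkbia encode precursors and the best-known inhibitor of NF-κB, and their transcript levels were followed in the rat beta-cell line INS-1 832/13. They were taken as the rows ENSRNOG00000023258 (Nfkb1), ENSRNOG00000019311 (Nfkb2) and ENSRNOG00000007390 (Nfkbia), and all 3 were found among the 34340 gene models. The deposited values list IDs without symbols, and the reference table used here lists 47357 rat genes with an Ensembl ID for 0 of them, so the pairing of these IDs with their symbols came with the choice of genes and was not checked against an annotation. INS-1 832/13 is a clonal insulin-secreting line from a rat insulinoma, so the libraries represent 1 clone. The cells overexpressed NIK (the NF-κB-inducing kinase), the enzyme β-Gal (β-galactosidase) as the control, or NIK(KA), which the labels do not describe and which is used in published work for a form without kinase activity. The sources used here do not give how the proteins were introduced. Library totals worked out from the deposited values were 17457498 (β-Gal), 15095979 (NIK) and 14349721 (NIK(KA)) reads. Each of the 3 proteins was profiled in 1 library. There is therefore no replicate error and no p-value, and each difference is one between libraries. The gene of NIK, beta-cell markers and the other genes of the pathway could not be matched to IDs, so neither the labels nor the cell type was checked.

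NF-κB is a family of dimeric transcription factors. In the canonical arm, IκBα (the product of Nfkbia) holds dimers such as p50 with RelA in the cytoplasm until it is phosphorylated by the IκB kinase complex and degraded. In the non-canonical arm, NIK activates IKKα, which phosphorylates p100 (the product of Nfkb2). Partial degradation of p100 yields p52, the partner of RelB. Nfkb1 encodes p105, the precursor of p50, and both p105 and p100 also act as inhibitors through their ankyrin repeats. Genes of this set are textbook targets of NF-κB itself, in other cell types, and Nfkbia is the standard example of a negative feedback gene.

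The promoter windows of the 3 genes are shown because the genes were selected as targets of NF-κB, whose precursors (Nfkb1, Nfkb2) and inhibitor (Nfkbia) they encode. Each window is from RefSeq on the build GRCr8 and runs from 250 bases before to 50 bases after an annotated start, and capitals mark the match to the κB consensus, the common binding motif of NF-κB dimers.
Nfkb1, chr2:226805413-226805712, minus strand: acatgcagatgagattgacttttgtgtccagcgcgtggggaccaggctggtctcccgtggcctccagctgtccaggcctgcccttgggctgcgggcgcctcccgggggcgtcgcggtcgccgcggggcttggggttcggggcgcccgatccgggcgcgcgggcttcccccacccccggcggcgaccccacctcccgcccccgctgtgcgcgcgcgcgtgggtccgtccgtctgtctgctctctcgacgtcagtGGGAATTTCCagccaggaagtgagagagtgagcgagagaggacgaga
Nfkb2, chr1:255108124-255108423, plus strand: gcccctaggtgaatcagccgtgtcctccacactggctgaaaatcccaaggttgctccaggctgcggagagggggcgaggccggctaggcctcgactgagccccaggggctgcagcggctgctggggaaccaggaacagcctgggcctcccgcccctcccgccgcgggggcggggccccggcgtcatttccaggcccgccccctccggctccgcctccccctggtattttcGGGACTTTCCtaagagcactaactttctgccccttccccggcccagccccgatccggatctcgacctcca
Nfkbia, chr6:78597023-78597322, minus strand: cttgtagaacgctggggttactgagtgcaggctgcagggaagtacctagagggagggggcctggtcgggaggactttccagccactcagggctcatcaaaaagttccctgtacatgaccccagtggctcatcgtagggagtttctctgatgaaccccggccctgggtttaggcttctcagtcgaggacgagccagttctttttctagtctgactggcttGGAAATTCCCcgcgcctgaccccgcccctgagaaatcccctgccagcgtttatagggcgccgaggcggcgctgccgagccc

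Each of the 3 windows held 1 match to the κB consensus, a motif of 10 bases searched on both strands. In Nfkb2 the match was GGGACTTTCC, from -20 to -11 relative to the start. In Nfkb1 it was GGGAATTTCC, from 4 to 13 after the start (the first transcribed base being 1). In Nfkbia the same 10 letters lay on the opposite strand, from -31 to -22. All 3 are also matches of the narrower form GGGANTTTCC, the letters these 3 matches share with N where they differ. It was thus taken from these windows and its matches overlap those of the consensus fully. The consensus was present in 7.51% of 33469 rat windows of this length (8.30% of 21851 windows of protein-coding genes) and the narrower form in 0.362% (0.403%). The member windows were richer in G and C (71.3% in Nfkb1, 69.3% in Nfkb2 and 59.7% in Nfkbia) than the median window (51.7%). The starts used for the windows lay inside the outermost annotated end of the gene, by 435 bases in Nfkb1, 2364 in Nfkb2 and 235 in Nfkbia. That end lay outside the window in Nfkb1 and Nfkb2, and inside it in Nfkbia. All 3 matches thus lay within the annotated span of their gene, also those before the start used. Other annotated starts were not given windows of their own. A match is a string of letters and was not measured as a bound site.

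**Figure D1:**
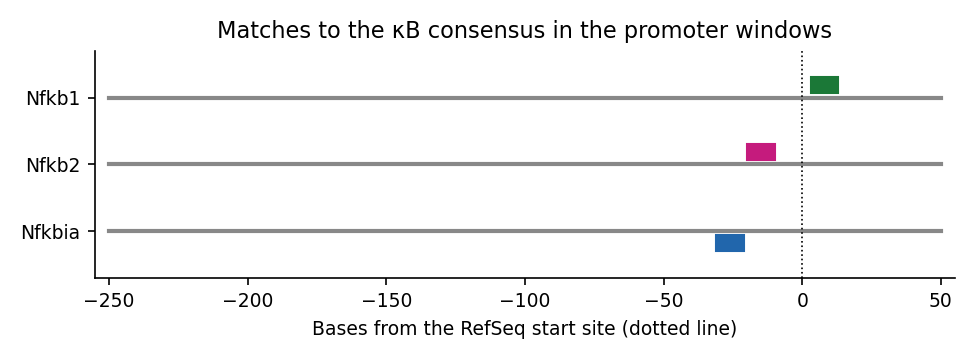
Position of the match to the κB consensus in the promoter window of each gene, in bases from the RefSeq start (dotted line). Boxes above the line are on the strand of the gene and boxes below it on the opposite strand. All 3 matches lie between -31 and 13.

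All 3 transcripts were most abundant in the NIK library, and the other libraries lay close together for Nfkb1 and Nfkb2 but not for Nfkbia. The values are FPKM, read numbers scaled by the authors to gene length and library total. The lowest whole read numbers that give them were worked out and are lower limits. Intervals in brackets are exact 95% intervals that cover counting error only. In a whole culture, fewer cells that transcribe a gene and less RNA per cell cannot be told apart.

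Nfkb2, the precursor on which the non-canonical arm acts, had a level of 22.5 FPKM in β-Gal (1207 reads, interval 21.3 to 23.8), 346 in NIK (16053 reads, 341 to 352) and 25.7 in NIK(KA) (1131 reads, 24.2 to 27.2). Only the NIK library was high, and the counting intervals of the other libraries were apart by less than 1 FPKM. NIK was 15.4-fold above β-Gal (14.5 to 16.3) and 13.5-fold above NIK(KA) (12.7 to 14.3). NIK(KA) was 1.14-fold above β-Gal (1.05 to 1.24). In β-Gal 14.0% of all gene models had an FPKM as high as that of Nfkb2 or higher, and 13.0% in NIK(KA), compared with 0.687% (236 gene models) in NIK. All gene models include those without reads. Over the 11171 that reached an FPKM of 5 in some library, the shares were 43.2% (β-Gal), 39.9% (NIK(KA)) and 2.11% (NIK). The reference table also holds a pseudogene, Nfkb2-ps1 (GRCr8, chr3:160425340-160428728). The sources used here do not say how reads that match both were assigned, so the level of Nfkb2 is uncertain to that extent.

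Nfkb1, the precursor of p50, had the lowest level of the 3 in β-Gal and NIK, and in NIK(KA) it was not apart from Nfkbia beyond counting error. Its FPKM was 12.8 in β-Gal (431 reads, 11.6 to 14.0), 47.1 in NIK (1375 reads, 44.7 to 49.7) and 15.5 in NIK(KA) (431 reads, 14.1 to 17.1). It was again high in NIK alone, but less so than Nfkb2. The ratio was 3.69-fold for NIK to β-Gal (3.31 to 4.12), 3.03-fold for NIK to NIK(KA) (2.72 to 3.39) and 1.22 for NIK(KA) to β-Gal (1.06 to 1.39).

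Nfkbia, the inhibitor, had a level of 32.2 FPKM in β-Gal (880 reads, 30.1 to 34.4), 172 in NIK (4070 reads, 167 to 178) and 16.4 in NIK(KA) (368 reads, 14.8 to 18.1). Its 3 levels were all apart beyond counting error, with NIK highest and NIK(KA) lowest. NIK was 5.35-fold above β-Gal (4.97 to 5.76) and 10.5-fold above NIK(KA) (9.45 to 11.7). NIK(KA) was 1.97-fold below β-Gal (1.74 to 2.23), whereas the ratios of Nfkb1 and Nfkb2 between these libraries were slightly above 1.

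**Figure D2:**
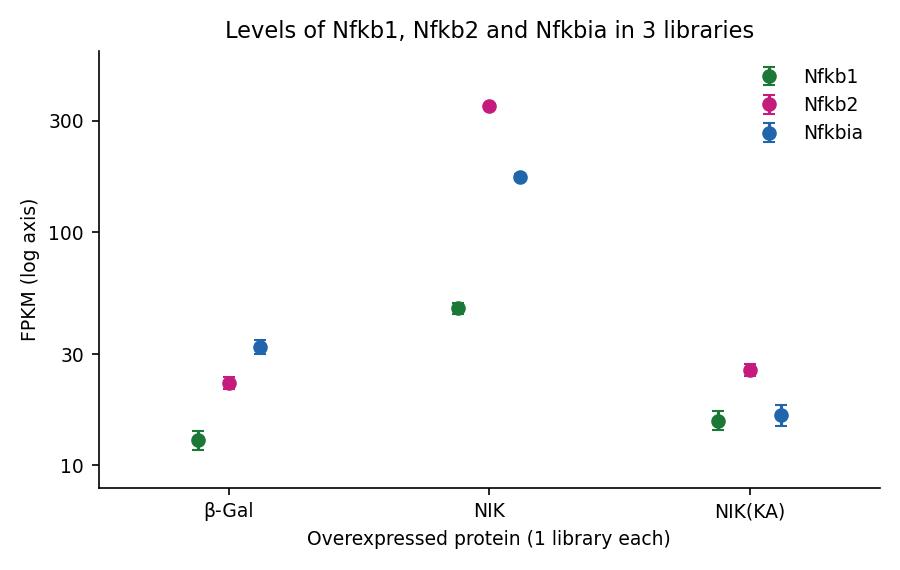
FPKM (log axis) of Nfkb1, Nfkb2 and Nfkbia in the 3 libraries, 1 point per library, with exact 95% counting intervals as bars where these are larger than the point. All 3 genes are highest in NIK, at 47.1, 346 and 172, and Nfkbia is at 32.2 in β-Gal and at 16.4 in NIK(KA).

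The order of the genes by FPKM, which is per length, changed between libraries. In β-Gal, Nfkbia was the most abundant, 1.43-fold above Nfkb2 (1.31 to 1.56), and Nfkb2 was 1.76-fold above Nfkb1 (1.58 to 1.97). In NIK, Nfkb2 came first, 2.01-fold above Nfkbia (1.94 to 2.08) and 7.35-fold above Nfkb1 (6.96 to 7.77). In NIK(KA), Nfkb2 was also first, 1.57-fold above Nfkbia (1.39 to 1.77). The ratio of Nfkbia to Nfkb1 there was 1.05 (0.915 to 1.21), so these neighbours were not apart beyond counting error. The summed FPKM of the 3 genes came to 67.5 (β-Gal), 566 (NIK) and 57.6 (NIK(KA)), and Nfkb2 made up 33.4%, 61.2% and 44.6% of these sums. The balance of the precursors, Nfkb2 over Nfkb1, was thus 1.76 in β-Gal and 1.65 (1.48 to 1.85) in NIK(KA), and 7.35 in NIK.

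The genes also differed in the size of their ratios. The NIK to β-Gal ratio of Nfkb2 was 4.17 times that of Nfkb1 (3.68 to 4.72) and 2.88 times that of Nfkbia (2.62 to 3.16), and that of Nfkbia was 1.45 times that of Nfkb1 (1.27 to 1.65). Against NIK(KA), Nfkb2 and Nfkbia were closer, with ratios that differed by a factor of 1.28 (1.13 to 1.45), Nfkbia having the lower level in NIK(KA). For NIK(KA) to β-Gal, the ratio of Nfkb2 was 0.937 times that of Nfkb1 (0.799 to 1.10), an interval that includes 1. The ratio of Nfkbia was 0.418 times that of Nfkb1 (0.348 to 0.503). Library totals and gene lengths cancel in these factors, so they do not depend on scaling.

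Against all genes, the members were read on the log2(FPKM + 1) scale over the 11171 gene models that reached an FPKM of 5 in some library. Higher and lower mean a difference of 2-fold or more on that scale, which understates changes of low genes. The members were chosen with earlier results of these data known, so the counts below describe them and are not an independent test. For NIK versus β-Gal, 3 of 3 members were higher, compared with 6.73% of all gene models. Their log2 ratios were 1.80 for Nfkb1, 3.88 for Nfkb2 and 2.38 for Nfkbia, and the median of the members was 2.38 against 0.02 for all gene models. Nfkb2 was the 33rd largest of the 11171 ratios (0.295% as large or larger), Nfkbia the 159th (1.42%) and Nfkb1 the 278th (2.49%). Nfkb2 was also past 8-fold, as 0.743% of gene models were, and Nfkbia past 4-fold, as 2.05% were.

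For NIK versus NIK(KA), 3 of 3 members were higher, compared with 6.97% of all gene models. The log2 ratios were 1.54 for Nfkb1, 3.70 for Nfkb2 and 3.32 for Nfkbia, and the median of the members was 3.32 against -0.12 for all gene models. In this comparison Nfkbia ranked 80th and Nfkb2 56th, both past 8-fold, as 0.985% of gene models were, and Nfkb1 ranked 423rd. This comparison and the first share the NIK library.

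For NIK(KA) versus β-Gal, 0 of 3 members were higher, compared with 2.97% of all gene models, and 0 of 3 were lower, compared with 1.95%. Nfkb1 and Nfkb2 lay inside the bulk of the gene models, at log2 ratios of 0.26 and 0.18, with 30.5% and 37.4% of gene models as high or higher. The quartiles of all gene models were -0.24 and 0.33. Nfkbia lay near the lower edge, at -0.93, just short of the 2-fold limit, and 2.44% of gene models were as low or lower. At a limit of 1.5-fold, which 7.92% of gene models passed on the lower side, it was lower. The 1 β-Gal library enters this ratio and the ratio of NIK to β-Gal.

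**Figure D3:**
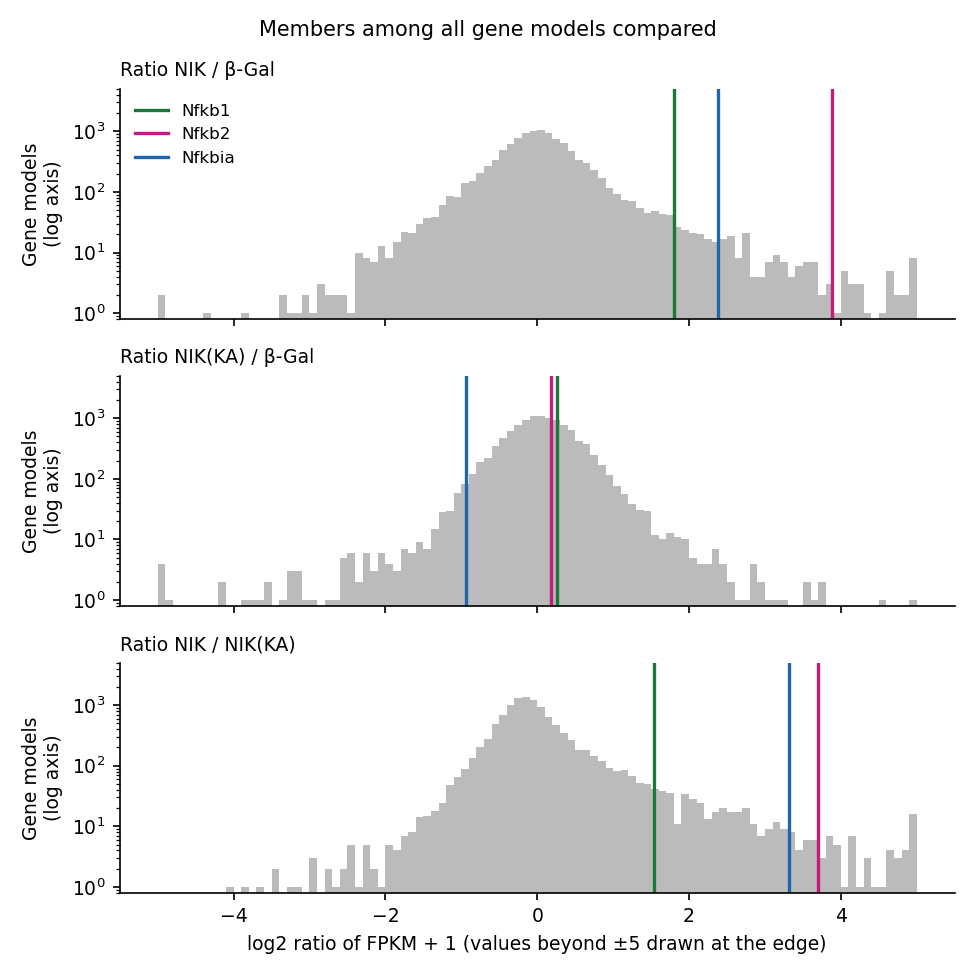
Distribution of log2 ratios of FPKM + 1 over 11171 gene models (grey, number of gene models on a log axis) in the 3 comparisons, with the 3 genes as vertical lines. All 3 lie in the right tail in both comparisons that contain NIK, and in NIK(KA) versus β-Gal Nfkbia lies on the left, at -0.93.

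Likeness to other gene models was measured as the distance in the plane of the log2 ratios of NIK and of NIK(KA) to β-Gal, over 3 libraries, and depended on the pseudocount. On the log2(FPKM + 1) scale there were 33 other gene models within a distance of 0.25 of Nfkb1, 7 of Nfkbia and 3 of Nfkb2, of 11170. On that scale the nearest lay at 0.04 from Nfkb1 (ENSRNOG00000051372), 0.20 from Nfkb2 and 0.10 from Nfkbia. Each had an FPKM of 5 or more only in NIK. Their ratios of FPKM itself, NIK over β-Gal, were 5.74, 86.7 and 6.47, compared with 3.69, 15.4 and 5.35 for the members. The ratio of 86.7 rests on 3 recovered reads in β-Gal. With the pseudocount left out, the same gene models lay 0.65, 2.63 and 0.64 from the members, so their closeness came from the pseudocount. Without a pseudocount, a setting added after the values were seen, there were 27, 6 and 7 gene models within 0.25 of Nfkb1, Nfkbia and Nfkb2, of 11139 above 0 in every library. The nearest to Nfkb2 was then ENSRNOG00000050509, at 0.03, with FPKM values of 2.24 (β-Gal), 34.2 (NIK) and 2.60 (NIK(KA)). In this setting too, the nearest to each member had an FPKM of 5 or more only in NIK. Each thus passed the minimum FPKM through that library alone. On the log2(FPKM + 1) scale the members were 1.33 apart for Nfkb1 and Nfkbia, 1.87 for Nfkb2 and Nfkbia and 2.08 for Nfkb1 and Nfkb2.

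**Figure D4:**
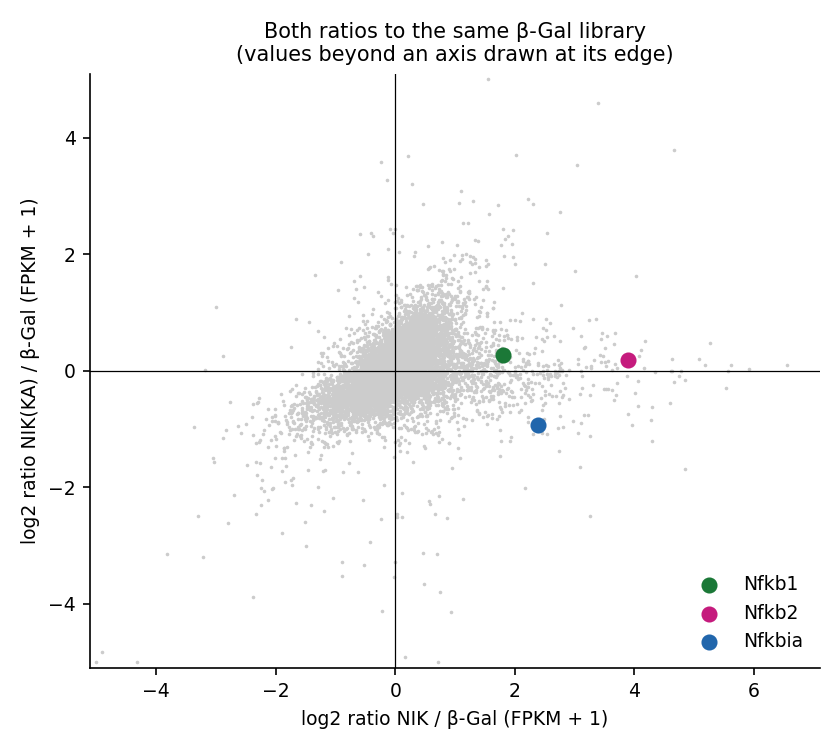
Each grey point is 1 of 11171 gene models, placed by its log2 ratio of NIK to β-Gal (x) and of NIK(KA) to β-Gal (y), both on FPKM + 1. The axes share the β-Gal library, so the spread of the cloud along the diagonal is not read. Nfkb1 and Nfkb2 lie near 0 on the y axis, at 0.26 and 0.18, and Nfkbia at -0.93.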

How the data were processed

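The authors deposited 1 FPKM value per gene model and library. Per the submitters' processing notes, the tools were TopHat2 and HTSeq 0.6.1 and the build was GRCm38, a mouse build, although the row IDs are of rat genes. The build behind the values is thus not settled, and the sources used here give neither strandedness nor filters. Groups follow the sample titles. The FPKM steps gave the library totals: 107 gene models with equal low read numbers had the same exact ratio. The totals are the lowest whole numbers with that ratio. Lowest whole read numbers and lengths then followed, and 22026 of the 22026 gene models above 0 were whole to within 1e-06 reads. These numbers are lower limits and held 96.1%, 95.9% and 95.9% of the totals of β-Gal, NIK and NIK(KA). Where a gene model falls short, it does so by a whole factor shared by the 3 libraries. Its counting intervals are then wider than the full numbers would make them. Whether any of the 3 members falls short is not known. Recovery was also run on simulated data, and its outcome is not quoted here. The simulation used the recovered lengths, so it cannot show whether these are the full lengths. Ratio intervals are exact (Clopper and Pearson on the split of reads, conditional odds ratios between genes, Poisson for levels; scipy 1.17.1). Reads are not independent molecules, and the intervals leave out any spread between cultures. Alternatives were pseudocounts of 0, 0.5 and 5, 3 scalings, minimum FPKM values of 0 and 20, and fold limits of 1.5 and 3. The genes and lists were chosen with earlier results of these data known. Named genes were the 3 members and their nearest gene models. Lists of other pathway genes and of cell markers needed symbols and were not run.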

Additional observations from a re-analysis of the deposited data

Results flagged for a closer look

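Nfkbia moved in opposite directions in the NIK and NIK(KA) libraries. Its log2 ratio to β-Gal was 2.38 for NIK and -0.93 for NIK(KA), the latter short of the 2-fold limit, on the log2(FPKM + 1) scale. With a single library of each the difference was not tested, and both ratios use the same β-Gal library.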

How the results depend on the processing

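The 54 alternative ratios of the 3 genes (pseudocounts and scalings) kept their sign and their side of the 2-fold limit. Of these, 47 shifted by no more than the log2 distance from the ratio of FPKM to the end of its counting interval. A pseudocount of 5 moved 6 of them: NIK to β-Gal became 1.55 for Nfkb1, 3.67 for Nfkb2 and 2.25 for Nfkbia, and NIK to NIK(KA) became 1.34, 3.52 and 3.05. Centring all gene models on a median log2 ratio of 0 removed a shift of -0.12 from NIK versus NIK(KA) and gave 3.82 for Nfkb2. Numbers of gene models higher in NIK versus β-Gal, NIK(KA) versus β-Gal and NIK versus NIK(KA) moved by over 1.5 times with a pseudocount of 5 (465, 129 and 516), a minimum FPKM of 20 (359, 137 and 402), a 1.5-fold limit (1599, 1288 and 1345) and a 3-fold limit (370, 90 and 411), from 752, 332 and 779. No minimum gave 1192 and 800 in the comparisons with β-Gal. Leaving out the pseudocount changed the number of gene models within 0.25 of Nfkb2 from 3 to 7. No paired analysis was possible because each group holds 1 library, and none could be left out. Depth limits little here, since each gene had at least 368 reads, whereas the spread between cultures is unknown.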
